A study of Mus musculus with 61 samples.

Results

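The intermediate sagittal fractions are the slices of the mouse brain that lie between the midline and the outer edge of each hemisphere. They were chosen by their fraction number alone, as fractions 3, 4, 8 and 9 of the sagittal series S and So, and they make up 8 of the 61 fractions of the data set. The other sagittal fractions are 6 midline fractions (5, 6 and 7 of each series) and 5 outermost fractions (2 and 10 of S; 1, 2 and 10 of So), so that 11 of the 19 sagittal fractions served for comparison. Each series came from 1 mouse, a C57BL/6J male aged 8 weeks with no genetic change or drug treatment named in the labels, whose brain had been perfused with an RNA preservative. The So brain was cut slightly obliquely. A fraction is 1 mm wide and pools 200 sections of 5 µm, counted here by the number in the sample labels (2 to 10 for S and 1 to 10 for So), and the numbers run from the left to the right side of the brain. The remaining 42 fractions are coronal and horizontal slices of 4 other mice.

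A sagittal slice between the midline and the lateral edge passes through many structures at once. In the forebrain it cuts the striatum, the large subcortical nucleus whose projection neurons integrate dopamine and adenosine signals through the cAMP pathway, together with cortex, hippocampus and lateral thalamus. Behind them lie the cerebellar hemisphere with its Purkinje and granule cells and the choroid plexus, the secretory epithelium of the ventricles. The hypothalamus and the monoamine nuclei of the brainstem lie close to the midline. A fraction is bulk tissue, so that fewer cells of a type and less RNA per cell cannot be told apart, and a peak of a gene in a fraction gives no cell of origin.

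RNA of each fraction was hybridized to 1 single-dye Agilent array. Levels are given as log2 of the processed signal minus the 75th percentile of the same array, so that 0 is the 75th percentile of the array. Between 61.8% and 66.0% of the probes were well above background on the intermediate arrays, against 59.6% to 65.8% on the midline and 57.9% to 62.7% on the outermost arrays. S2, So1 and So2, all outermost, shared a slide that held no intermediate fraction and had the lowest shares, 57.9% to 59.1%. The tests covered 14215 named genes, 1 probe each, in a model with the mouse as a block. Since each series is 1 mouse, the p-values measure the spread between fractions of 2 brains and not between animals.

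The position of the fractions was described with gene lists of midline structures, which were chosen with earlier results of these data known. The mean level of 14 hypothalamic genes, relative to each gene's mean over its series, was 0.66 to 1.90 in the midline fractions and -1.64 to 0.57 in the intermediate ones, and the 10 dopamine neuron genes gave 1.24 to 1.63 and -1.51 to 0.51. In neither list did the intermediate fractions reach the lowest midline value. The 6 habenular genes did overlap: S5, at the midline, was at -0.13, below the intermediate fractions S8 at -0.003 and So4 at -0.08. For the hypothalamic and dopamine lists, the left intermediate fractions S3, S4, So3 and So4 were below 0, while the inner right fractions S8 and So8 were above 0.

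No gene passed the test when the 8 intermediate fractions were set against all 11 others. With limma, 0 genes (0% of those tested) were higher and 0 were lower at an adjusted p under 0.05, and the smallest adjusted p was 0.0763. At an unadjusted p under 0.05, 617 genes were higher and 650 lower, and an ordinary ANOVA of the same model gave 0 higher and 4 lower. Without S8 the counts were 5 and 1, without So10 they were 7 and 3, and without S3 they were 1 and 0. The comparison group holds both the midline and the lateral edge, and the intermediate fractions were then compared with each of them in a fit with 3 positions. The rule for naming genes asked for the genes called in the first comparison, of which there are none, so the genes below come from the comparisons with the midline and outermost fractions, from the gene lists and from the comparison among the 8 fractions.

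The sign of the difference was also read in each of the 4 brain sides, as the mean of the 2 intermediate fractions of one side minus the mean of the other fractions of that side. The difference was positive in all 4 for 1481 genes (10.4% of those tested) and negative in all 4 for 2295 genes (16.1%). Of the 20 measured genes of striatal projection neurons, 16 were higher in all 4 brain sides and 0 were lower. The same count was 12 of 14 for oligodendrocytes, 11 of 13 for the choroid plexus and 6 of 10 for Purkinje cells. Lower in all 4 brain sides were 9 of 12 microglial genes, 8 of 10 dopamine neuron genes, 8 of 14 hypothalamic genes and 5 of 7 serotonin and noradrenaline genes.

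Complete separation was rare. Every intermediate array lay above every other sagittal array for 5 genes (0.0352%) and below every other for 2 genes (0.0141%). The 5 were Car12, Doc2b, Hes3, Nfkbie and Polrmt, and the 2 were Rnd1 and Trim45. They were named after their values were seen, and Car12 is the only one of these 7 that also passed the test against both the midline and the outermost fractions. Car12, a membrane-bound carbonic anhydrase, ranged from -0.09 to 0.56 (median 0.34) in the intermediate fractions, from -0.83 to -0.20 (median -0.42) in the midline fractions, and was -1.23 in S2, -0.32 in S10, -1.46 in So1, -1.15 in So2 and -0.47 in So10.

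In the fit with 3 positions, 24 genes (0.169% of those tested) were higher in the intermediate fractions than in the midline and also than in the outermost fractions, with an adjusted p under 0.05 in both comparisons. Another 22 genes (0.155%) were lower than in both. Fitted differences of the 24 genes, those near background included, ranged from 1.15-fold to 5.59-fold over the midline and from 1.16-fold to 5.58-fold over the outermost fractions. All 24 and all 22 kept their sign in the 4 brain sides, but these are the arrays that chose the genes, so that this is no separate test. On all 19 arrays, 18 of the 24 and 20 of the 22 were well above background.

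**Figure D1:**
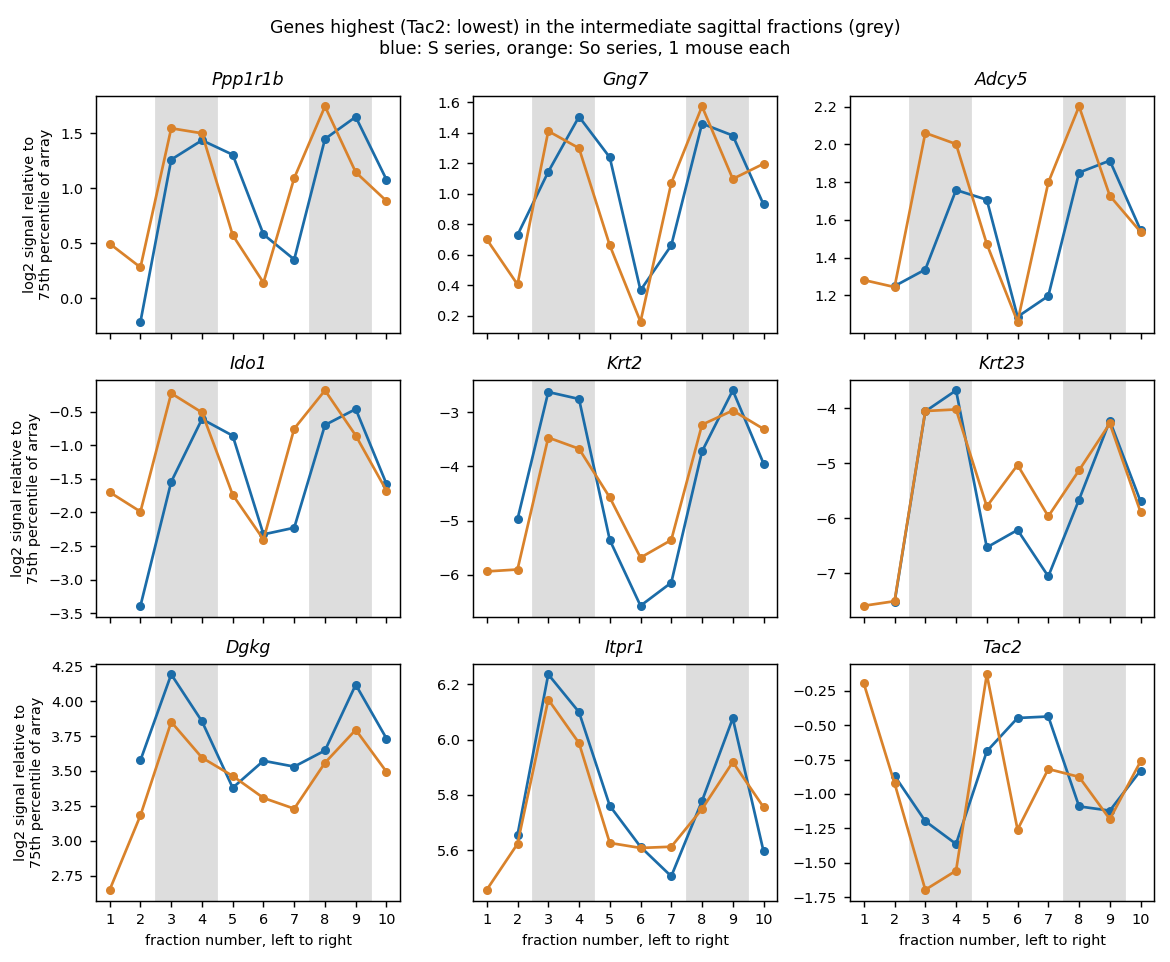
Log2 signal relative to the 75th percentile of the array (vertical axis) of 9 genes in the sagittal fractions from left to right (horizontal axis, fraction number), for S in blue and So in orange, with 1 array per point and the intermediate fractions in grey. Ppp1r1b, Gng7, Adcy5, Ido1, Krt2, Krt23, Dgkg and Itpr1 rise on each side of the midline in at least 1 intermediate fraction, and Tac2 has a trough at So3 and So4 on the left.

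Genes of striatal cAMP signalling stood among the 24. Ppp1r1b encodes DARPP-32, the phosphatase inhibitor that relays dopamine signals in striatal projection neurons. Its level was 1.15 to 1.75 (median 1.48) in the intermediate and 0.14 to 1.31 (median 0.58) in the midline fractions, and -0.22 in S2, 1.08 in S10, 0.50 in So1, 0.28 in So2 and 0.88 in So10. The intermediate fractions were above all others except S5, which lay inside their range. The difference was 0.79 ± 0.20 (SE), adjusted p = 0.0292, over the midline and 0.96 ± 0.21 (SE), adjusted p = 0.00393, over the outermost fractions, or 1.73-fold and 1.95-fold.

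Gng7, the G protein gamma subunit that couples striatal receptors to adenylyl cyclase, followed the same course. It ranged from 1.10 to 1.57 (median 1.40) in the intermediate and from 0.16 to 1.24 (median 0.66) in the midline fractions, and was 0.73 in S2, 0.93 in S10, 0.70 in So1, 0.41 in So2 and 1.20 in So10. Of the others, S5 and So10 reached the intermediate range. Gng7 was higher than in the midline by 0.67 ± 0.16 (SE), adjusted p = 0.0216, and higher than in the outermost fractions by 0.56 ± 0.17 (SE), adjusted p = 0.0192. Adcy5, the main adenylyl cyclase of the striatum, differed by 0.47 ± 0.13 (SE), adjusted p = 0.0455, and by 0.50 ± 0.14 (SE), adjusted p = 0.0158. In S3 the level of Adcy5 was 1.34, the lowest of the 8, and S5, So5, So7, S10 and So10 lay above it. The call of Adcy5 against the midline was lost under 20 of 36 alternatives.

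Ido1, which opens the kynurenine pathway of tryptophan breakdown, ranged from -1.54 to -0.19 (median -0.56) in the intermediate fractions, from -2.40 to -0.75 (median -1.98) in the midline fractions, and was -3.39 in S2, -1.58 in S10, -1.70 in So1, -1.99 in So2 and -1.68 in So10. S5 and So7 overlapped with the intermediate range. The fold over the midline was 2.11 with an adjusted p of 0.049, and over the outermost fractions 2.76 with 0.00445. The call against the midline was lost under 22 of 36 alternatives. Actn2, an actin crosslinking protein of dendritic spines and muscle, was 1.61-fold and 1.63-fold higher. Cd72, known as a receptor of B cells, was dimmer, with -4.77 to -3.01 (median -3.79), and was 2.1-fold above the midline and 2.32-fold above the outermost fractions. Il2rb, the beta chain of the interleukin 2 receptor, was 1.81-fold and 1.56-fold higher, and only 3 of the 6 midline and 3 of the 5 outermost arrays had it well above background.

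Within the 24, keratin genes of low signal had the largest fitted differences. Krt2, a type II keratin, ranged from -3.73 to -2.60 (median -3.10) in the intermediate and from -6.57 to -4.57 (median -5.52) in the midline fractions, and was -4.98 in S2, -3.95 in S10, -5.94 in So1, -5.90 in So2 and -3.31 in So10. So10 lay within the intermediate range. Krt2 was well above background on 3 of the 6 midline and 3 of the 5 outermost arrays, so that its folds rest in part on signals near background. The fitted fold was 5.59 over the midline (adjusted p = 0.0053) and 3.19 over the outermost fractions (adjusted p = 0.00902). Krt23, a type I keratin, had fitted folds of 3.28 and 5.58, but it was well above background on 7 intermediate arrays and on only 1 midline and 1 outermost array, so that these folds rest on signals near background. Clspn, an adaptor of the DNA replication checkpoint, was well above background on only 4 intermediate arrays and on 0 of the others, and no fold is given. Its mean measured level was -6.04 in the intermediate, -7.49 in the midline and -7.29 in the outermost fractions.

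**Figure D2:**
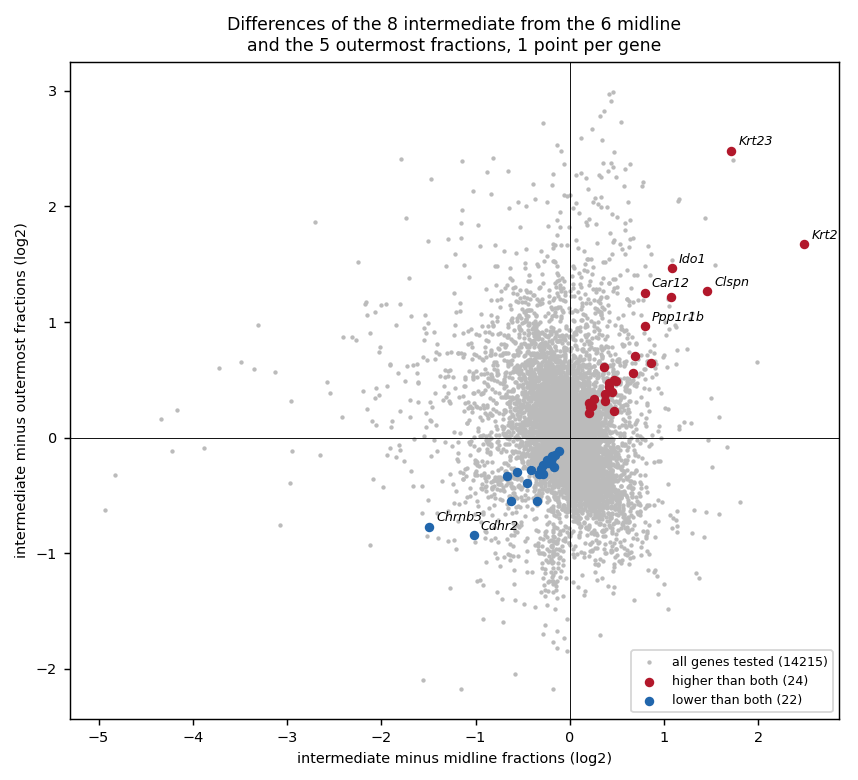
Difference of the intermediate from the midline fractions (horizontal axis, log2) and from the outermost fractions (vertical axis, log2), 1 point per gene. The 24 genes higher than both are red, with Krt2 and Krt23 farthest out, and the 22 genes lower than both are blue. Points of genes near background, among them Krt23, Clspn, Chrnb3 and Cdhr2, have fitted positions that are not measured sizes.

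The 24 genes were then followed in the 4 brains that had been cut in the other planes and were not used to choose them. Coronal fractions are numbered from the posterior to the anterior end and horizontal fractions from dorsal to ventral. For 9 of the 24 genes (Clspn, Ido1, Cd72, Ppp1r1b, Actn2, Il2rb, Gng7, Adcy5 and St8sia3, a sialyltransferase) the highest value fell in C8 to C10 and in Co11, where 2.94% of all genes tested and 16 of the 20 striatal projection neuron genes had theirs. For 11 genes (among them Dgkg, Atoh8, Itpr1, Lingo3, Car15, Gpd1, Golm1, Syt12, Sh3bp5 and Usp28) it fell in C2 to C4 and in Co3 to Co5. In this range 12.3% of all genes, 9 of 10 Purkinje cell genes, 9 of 9 granule cell genes and 11 of 13 choroid plexus genes had theirs. Krt23, Krt2, Car12 and Mgl2 belonged to neither range. None of the 22 genes that were lower than both had its maximum in either range. The 2 ranges of fractions were chosen after the maxima were seen. Ppp1r1b, Gng7 and Adcy5 also belong to the striatal list, and Itpr1 to the Purkinje cell list. In a wider anterior range, C6 or above and Co7 or above, lay the maxima of 12 of the 24 genes (50%). This range also held those of 13 of the 22 genes (59.1%) and of 45.7% of all genes. C4 or below with Co5 or below held those of 11 of the 24 (45.8%), 5 of the 22 (22.7%) and 27.9% of all genes.

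In the horizontal brains, all 11 genes with a posterior maximum were highest in H1 to H3 and in Ho1 to Ho3, the dorsal fractions. So were 10 of 10 Purkinje cell genes, 5 of 9 granule cell genes, 0 of 13 choroid plexus genes and 35.7% of all genes. Among the 9 genes with an anterior maximum, Clspn alone was highest in a dorsal fraction (H3), and the others were highest in H4 to H6 and Ho4 to Ho7, as were 33.8% of all genes and 16 of the 22 genes lower than both regions. In the intermediate sagittal fractions the differences over the midline were 0.20 to 0.47 in the posterior group. They were 0.42 (St8sia3) to 1.08 (Ido1) in the anterior group, leaving out Clspn, for which no fold is given. Dgkg, a diacylglycerol kinase, was higher by 0.41 (adjusted p = 0.0485) and 0.47 (adjusted p = 0.012), and its call against the midline was lost under 23 of 36 alternatives, as was that of St8sia3 under 21. Itpr1, the inositol trisphosphate receptor that is abundant in Purkinje cells, was higher by 0.38 (adjusted p = 0.0102) and 0.38 (adjusted p = 0.00273). The transcription factor Atoh8 gave 0.44 (adjusted p = 0.0195) and 0.39 (adjusted p = 0.0128), and the glycerol-3-phosphate dehydrogenase Gpd1 0.23 (adjusted p = 0.042) and 0.27 (adjusted p = 0.00878). All 11 were lower in the inner than in the outer intermediate fractions, by a median of -0.12, given as a description. Of all 14215 genes tested, 7240 were lower there.

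**Figure D3:**
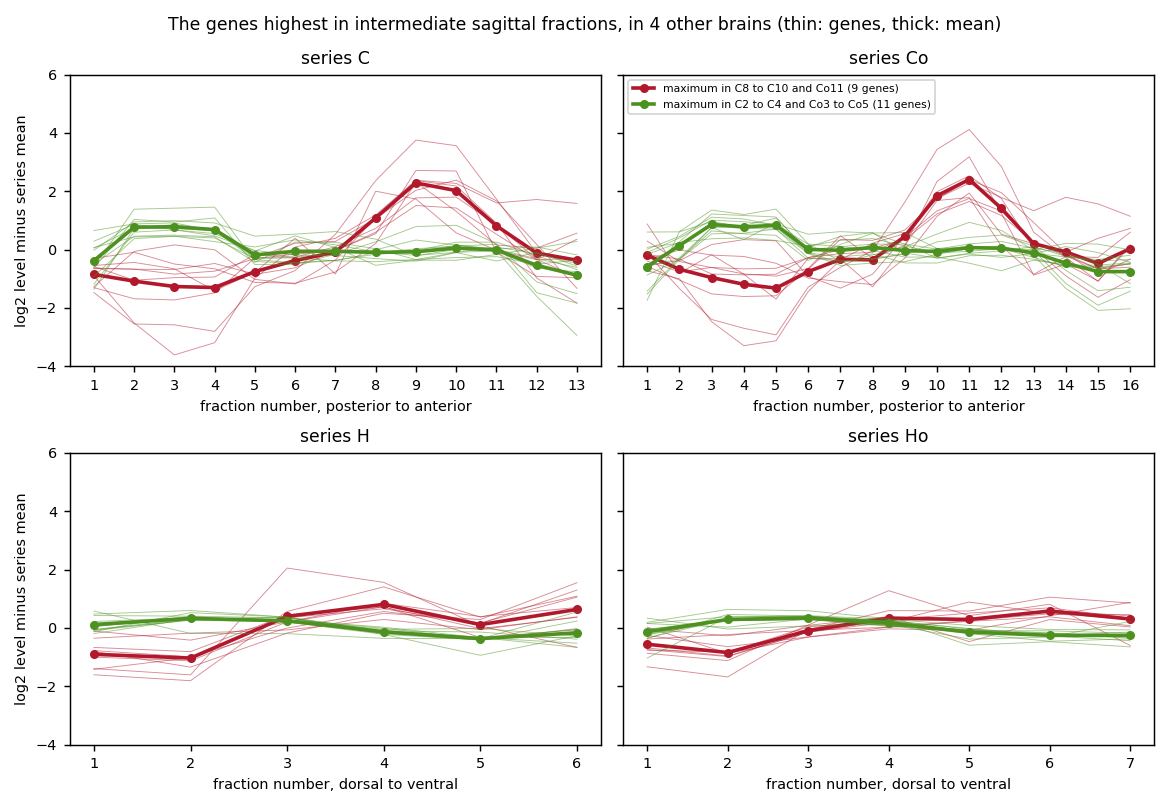
Log2 level minus the mean of the series (vertical axis) of 9 genes with an anterior and 11 genes with a posterior coronal maximum, by fraction number (horizontal axis) in the coronal series C and Co and the horizontal series H and Ho. Thin lines are genes and thick lines their mean. The red mean peaks at C9 and Co11, and the green mean lies highest at C2 to C4 and Co3 to Co5.

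For 16 of the 24 genes a promoter was listed in the RefSeq table of the mouse build GRCm38.p6, as 250 bases before and 50 after the annotated start. The letters GGGCGG, the GC box, were searched on both strands. They occurred in 9 of these 16 promoters (56.2%) and in 35.9% of the first listed promoters of 27025 genes. These are all genes with a listed promoter and not only the genes tested, so that the shares have unlike backgrounds. Of the 22 genes lower than both regions, 17 had a listed promoter and 9 of these (52.9%) held the GC box. The cAMP response element TGACGTCA occurred in 0 of the 16, against 1.88% of all. The promoters of Gng7, Adcy5 and Dgkg are shown because Gng7 and Adcy5 are members of the striatal cAMP pathway and Dgkg is, by the smaller of its 2 differences, the first of the posterior group. Gng7 lies at chr10:81014876-81015175, minus strand, Adcy5 at chr16:35154614-35154913, plus strand, and Dgkg at chr16:22657182-22657481, minus strand. Each is written 5′ to 3′ along its gene, with GC boxes of either strand in capitals.
Gng7: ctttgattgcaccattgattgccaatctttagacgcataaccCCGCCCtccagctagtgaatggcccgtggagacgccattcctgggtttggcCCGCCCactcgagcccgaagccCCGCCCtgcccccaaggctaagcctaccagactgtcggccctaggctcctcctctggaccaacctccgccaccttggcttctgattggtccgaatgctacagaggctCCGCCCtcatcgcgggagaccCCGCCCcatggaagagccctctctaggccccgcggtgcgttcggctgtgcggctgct
Adcy5: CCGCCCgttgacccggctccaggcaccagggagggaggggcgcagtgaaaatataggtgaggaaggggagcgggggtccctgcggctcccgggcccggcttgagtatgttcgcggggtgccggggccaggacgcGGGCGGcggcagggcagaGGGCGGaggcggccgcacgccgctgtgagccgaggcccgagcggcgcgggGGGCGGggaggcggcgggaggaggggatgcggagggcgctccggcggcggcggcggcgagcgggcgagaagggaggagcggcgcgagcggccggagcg
Dgkg: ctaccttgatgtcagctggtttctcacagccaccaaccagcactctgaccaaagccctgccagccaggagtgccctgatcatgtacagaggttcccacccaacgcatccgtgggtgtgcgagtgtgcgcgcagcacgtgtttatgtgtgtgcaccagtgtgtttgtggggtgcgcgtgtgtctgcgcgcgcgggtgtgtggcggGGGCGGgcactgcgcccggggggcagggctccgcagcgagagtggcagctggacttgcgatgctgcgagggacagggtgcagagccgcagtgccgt
Gng7 has 5 GC boxes in this window, Adcy5 has 4 and Dgkg has 1. A match of letters is a description of the sequence, not a site.

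Most of the 22 genes lower than both regions differed by less than 1 log2 unit. Chrnb3, a subunit of nicotinic acetylcholine receptors, ranged from -6.80 to -5.58 (median -6.002) in the intermediate fractions, from -5.03 to -3.97 (median -4.66) in the midline, and was -5.64 in S2, -5.36 in S10, -4.55 in So1, -4.79 in So2 and -5.86 in So10. S2 and So10 lay within the intermediate range. The differences were -1.49 (adjusted p = 0.00292) and -0.77 (adjusted p = 0.0136), and Chrnb3 was well above background on 2 of the 8 intermediate arrays. Tac2, the precursor of neurokinin B, differed by -0.63 (adjusted p = 0.0347) and -0.55 (adjusted p = 0.0298). Its lowest levels were -1.70 in So3 and -1.56 in So4, and So2 and So6 overlapped with the intermediate range. Cdhr2, a protocadherin of epithelia, was well above background on 0 of the 8 intermediate arrays, on 4 of 6 midline and on 2 of 5 outermost arrays, and no fold is given. Its mean measured level was -6.27 in the intermediate, -5.25 in the midline and -5.37 in the outermost fractions.

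Celf6, an RNA-binding protein, differed by -0.46 (adjusted p = 0.0135) and -0.39 (adjusted p = 0.00985). Rgn, a calcium-binding protein, gave -0.67 (adjusted p = 0.00614) and -0.33 (adjusted p = 0.0496), the latter lost under 24 of 36 alternatives. Npas1, a transcription factor of inhibitory neurons, gave -0.33 (adjusted p = 0.0248) and -0.32 (adjusted p = 0.0107). Of the 22 genes, Chrnb3 alone was in a gene list used here, that of 6 habenular genes. The proapoptotic gene Bid gave -0.28 (adjusted p = 0.00892) and -0.32 (adjusted p = 0.00107), and the orphan receptor Mrgpre gave -0.56 (adjusted p = 0.00422) and -0.30 (adjusted p = 0.021). Plppr3, of the lipid phosphatase related family, gave -0.41 (adjusted p = 0.00944) and -0.28 (adjusted p = 0.022), and 2610318N02Rik gave -0.35 and -0.55. Among the others, the neuronal tubulin Tubb3 gave -0.20 (adjusted p = 0.0292) and -0.21 (adjusted p = 0.00988), and the Notch ligand Jag2 gave -0.28 (adjusted p = 0.00343) and -0.24 (adjusted p = 0.00133).

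The counts of 24 and 22 rest on few arrays. They fell to 3 and 2 when slide was a fixed block, and to 0 and 1 without fraction 6 of both series. Among single arrays, the count of 24 became 15 without S4, 8 without S6, 8 without S7, 12 without S9, 12 without So3, 14 without So5 and 9 without So6, and rose to 37 without S8 and to 67 without So10. The count of 22 became 11 without S3, 8 without S6, 7 without S7, 11 without S9, 10 without So3, 14 without So5 and 8 without So6. Within each of the 4 slides that hold intermediate and other fractions, all 24 and all 22 kept their direction, with a median of 0.29 to 0.57 and of -0.34 to -0.16. These are the arrays that chose the genes.

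The striatal lists were described as a whole. Of 20 measured genes of striatal projection neurons (of 25 listed), 4 were higher than in the midline and 0 lower, and 12 were higher than in the outermost fractions and 0 lower. Over all genes tested, 4.05% were higher than in the midline and 13.3% higher than in the outermost fractions. The median difference was 0.43 over the midline and 0.63 over the outermost fractions, against -0.04 for the latter over all genes. The mean level of the list was highest in So8, at 0.66, and S9, at 0.49, and lowest in S2, at -0.85. S3 was an exception among the intermediate fractions, with -0.16, while S5 had 0.32.

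Several striatal genes passed the test against the outermost fractions and not against the midline, and the difference between these comparisons was not tested. Drd2, the D2 dopamine receptor, was higher than in the outermost fractions by 2.27 (adjusted p = 0.0013), with 0.31 (adjusted p = 0.704) against the midline. Rgs9, a regulator of G protein signalling at these receptors, gave 1.73 (adjusted p = 0.002) and 0.67 (adjusted p = 0.233). The phosphodiesterase Pde10a gave 1.41 (adjusted p = 0.000701) and 0.67 (adjusted p = 0.0749), and Drd1, the D1 receptor, 1.15 (adjusted p = 0.00357) and 0.63 (adjusted p = 0.123). The peptide genes Penk and Tac1 exceeded the outermost fractions by 1.17 (adjusted p = 0.00222) and 1.27 (adjusted p = 0.0028), and gave 0.31 (adjusted p = 0.435) and -0.10 (adjusted p = 0.864) against the midline.

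The wider list of G protein and cAMP signalling had 24 measured genes of 26. Of these, 8 were higher and 1 lower than in the midline, and 9 were higher and 5 lower than in the outermost fractions. Over all genes 4.14% were lower than in the midline and 18.6% lower than in the outermost fractions, near the shares of the list called lower. Arpp21 and Pde2a, which are also expressed in cortex, were higher than in the midline by 0.76 (adjusted p = 0.00948) and 0.65 (adjusted p = 0.0053), and lower than in the outermost fractions, with -0.44 (adjusted p = 0.0458) and -0.56 (adjusted p = 0.00206). The call of Arpp21 against the outermost fractions was lost under 20 of 36 alternatives. The list held genes of both directions.

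**Figure D4:**
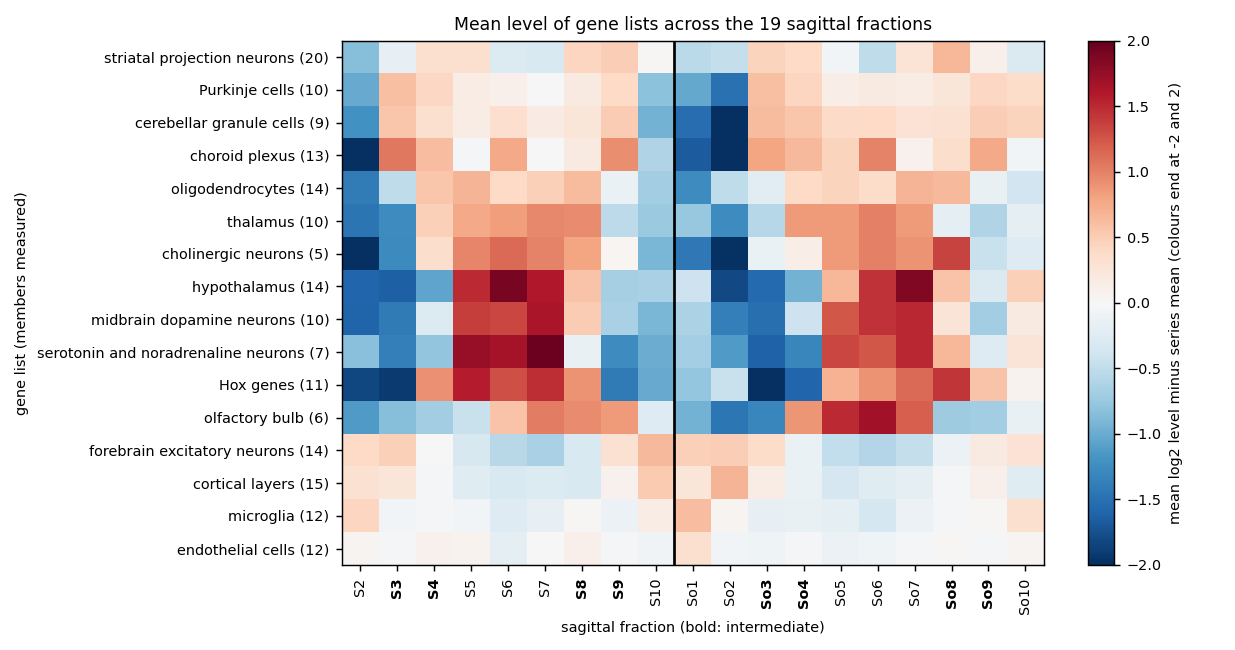
Mean log2 level of the members of 16 gene lists minus their series mean (colour, which ends at -2 and 2) in the 19 sagittal fractions (horizontal axis, intermediate in bold), with S left and So right of the line. Striatal, cerebellar and choroid plexus lists are red in most intermediate fractions, and the hypothalamic and monoamine lists are red in the midline fractions.

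Against the midline, 1165 genes (8.2%) were called, of which 576 (4.05%) were higher and 589 (4.14%) lower in the intermediate fractions. Genes of monoamine and hypothalamic neurons were among the most reduced. Slc6a4, the serotonin transporter, differed by -4.93 (adjusted p = 0.0053) and Tph2, the rate-limiting enzyme of brain serotonin synthesis, by -2.95 (adjusted p = 0.00525). Slc6a4 was well above background on 3 and the noradrenaline transporter Slc6a2 on 4 of the 8 intermediate arrays. Slc6a2 gave -3.72 (adjusted p = 0.0126), the dopamine transporter Slc6a3 -3.49 (adjusted p = 0.0324), and the vesicular monoamine transporter Slc18a2 -3.35 (adjusted p = 0.0053). In all, 9 of 10 dopamine neuron genes and 5 of 7 serotonin and noradrenaline genes were lower and 0 were higher.

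Of 14 hypothalamic genes, 10 were lower than in the midline and 0 higher. Among them were the orexin precursor Hcrt with -4.83 (adjusted p = 0.0137), the melanin-concentrating hormone precursor Pmch with -4.34 (adjusted p = 0.0262), and the vasopressin and oxytocin genes Avp and Oxt with -4.17 (adjusted p = 0.034) and -3.88 (adjusted p = 0.0135). Pmch was not well above background on at least 1 of the 19 sagittal arrays, so that its size may also rest in part on signals near background. The level of Hcrt was -4.33 in S3, -4.40 in S4, 1.16 in S8, -1.74 in S9, -3.61 in So3, -3.66 in So4, 0.83 in So8 and -0.93 in So9. In both brains the left fractions were the lowest and fraction 8 the highest of the intermediate ones.

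Genes of forebrain excitatory neurons lay in the opposite direction. Of 14 measured, 10 were higher than in the midline, 7 were lower than in the outermost fractions, and 0 were called the other way in either comparison. Slc17a7, the vesicular glutamate transporter of cortex and hippocampus, gave 0.74 (adjusted p = 0.012) against the midline and -0.65 (adjusted p = 0.00722) against the outermost fractions. Itpka, an inositol kinase of dendritic spines, gave 0.74 (adjusted p = 0.0053) and -0.65 (adjusted p = 0.00199), and Rgs14, a marker of the hippocampal area CA2, 0.84 (adjusted p = 0.00728) and -0.76 (adjusted p = 0.00291). Of 9 genes of Ammon's horn, 3 were higher and 1 lower than in the midline, beside 4.05% and 4.14% of all genes. Against the outermost fractions 2 were higher and 2 lower, beside 13.3% and 18.6% of all genes. Spink8, one of the 3, gave 1.21 (adjusted p = 0.0232) against the midline.

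The count against the midline fell from 1165 to 606 without S3, 409 without S6, 399 without S7, 576 without S9, 540 without So3, 724 without So5, 449 without So6 and 648 without So9. In the authors' normalized table, 60.1% of the calls were higher in place of 49.4%. Without fraction 6 of both series, 6 genes were left, and S alone gave 0 and So alone 2.

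Against the outermost fractions, 4527 genes (31.8%) were called, 1887 (13.3%) higher and 2640 (18.6%) lower. In S alone 852 were higher and 641 lower, and in So alone 2 and 1. With both series, the gene lists with the highest median were the choroid plexus, at 2.32, and the granule cells, at 1.52. All 13 measured choroid plexus genes were higher and 0 lower, with Ttr, the thyroxine carrier secreted by this epithelium, at 2.99 (adjusted p = 0.00231), the potassium channel subunit Kcne2 at 2.83 (adjusted p = 0.00286), and the coagulation factor gene F5 at 2.73 (adjusted p = 0.000697). Of these 13, 0 were called against the midline, where the median difference was 0.36. F5 was not well above background on at least 1 of the 19 sagittal arrays, so that its size may rest in part on signals near background. The mean level of the list was 0.19 to 1.06 in the intermediate, -0.02 to 0.99 in the midline and -2.92 to -0.06 in the outermost fractions.

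Of the cerebellar lists, 8 of 10 Purkinje cell genes and 8 of 9 granule cell genes were higher than in the outermost fractions and 0 were lower. Gabra6, the receptor subunit that marks granule cells, gave 2.97 (adjusted p = 0.00125) and Cbln3 gave 2.92 (adjusted p = 0.00188). Cbln3 was not well above background on at least 1 of the 19 sagittal arrays, so that its size may rest in part on signals near background. The Purkinje cell genes Pcp2 and Ppp1r17 gave 1.93 (adjusted p = 0.00202) and 2.58 (adjusted p = 0.00101). Against the midline, Itpr1 and Cadps2 alone passed from these lists, and Cadps2, a secretion factor of granule cells, gave 0.45 (adjusted p = 0.0305). The outermost fractions differed among themselves here. The granule cell list was at -1.995 in So2, -1.52 in So1, -1.21 in S2 and -0.94 in S10, but at 0.45 in So10, within the intermediate range of 0.24 to 0.63.

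Lower than in the outermost fractions were 10 of 12 microglial genes and 0 were higher. Aif1, a calcium-binding marker of microglia, gave -0.58 (adjusted p = 0.00217), the fractalkine receptor Cx3cr1 -0.39 (adjusted p = 0.00598), and the purinergic receptor P2ry12 -0.39 (adjusted p = 0.00133). Against the midline all 12 had a positive difference and 0 were called. Of 15 genes of cortical layers, 4 were lower and 2 higher, beside 18.6% and 13.3% of all genes. The lower ones were Cux2 at -0.79 (adjusted p = 0.00186), Rasgrf2 at -0.98 (adjusted p = 0.000458), Lamp5 at -0.77 (adjusted p = 0.0122) and Tbr1 at -0.59 (adjusted p = 0.032), and the higher ones were the transcription factor Etv1 at 0.70 (adjusted p = 0.000992) and the neurexophilin Nxph4 at 0.83 (adjusted p = 0.00956). Of 12 endothelial genes 0 were called, and of 13 astrocyte genes 2 were higher and 1 lower. With median scaling 4 endothelial genes were lower and 0 higher, and 4 astrocyte genes were lower and 1 higher, and these counts were the same in the deposited normalized table.

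The effect of the slide depended on how it entered the model. As a random block it left 1664 genes higher and 2344 lower, with 13 of 13 choroid plexus, 14 of 14 oligodendrocyte, 8 of 9 granule cell, 8 of 10 Purkinje cell and 12 of 20 striatal projection neuron genes higher and 9 of 12 microglial genes lower. Slide as a fixed block leaves S10 and So10 as the outermost fractions that share a slide with intermediate ones, and in that fit 96 genes were higher and 127 lower, and of the choroid plexus, oligodendrocyte, microglial, granule cell and striatal projection neuron lists 0 genes were called, and of the Purkinje cell list 3. The medians of the first 5 kept their sign, at 0.87, 0.78, -0.25, 0.58 and 0.47. The median processed signal of the negative control spots was 5.11 to 7.43 on the arrays of the slide of S2, So1 and So2, 3.91 to 7.45 on the midline arrays and 3.40 to 6.19 on the intermediate arrays. S2 was scanned on the day of the So arrays and the other S arrays on another day. The part of either in the result was not tested. Scaling to the median of each array moved the median difference of all genes from -0.04 to -0.14 and the calls to 1242 higher and 4950 lower, so that 20.1% of the calls were higher in place of 41.7%, and the authors' normalized table gave 19.8%. Against the outermost fractions, the counts of the choroid plexus, oligodendrocyte and cerebellar lists were the same under that scaling, and 12 microglial genes were lower.

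Among the 8 intermediate fractions, the inner ones (4 and 8) were compared with the outer ones (3 and 9), with the mouse and the side as blocks. Of all genes, 976 (6.87%) were called, 560 (3.94%) higher and 416 (2.93%) lower in the inner fractions. All 14 oligodendrocyte genes were higher. Mbp, which encodes a main protein of myelin, gave 0.59 ± 0.08 (SE), adjusted p = 0.0279, and Mog, a glycoprotein of the myelin surface, gave 0.94 (adjusted p = 0.023). The mean level of the list was 0.56 in S4, 0.63 in S8, 0.40 in So4 and 0.65 in So8, against -0.51 in S3, -0.13 in S9, -0.23 in So3 and -0.15 in So9. The inner and outer fractions did not overlap. Oligodendrocyte genes were also higher in the intermediate than in the outermost fractions (14 of 14), while all 14 had a negative and uncalled difference from the midline.

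**Figure D5:**
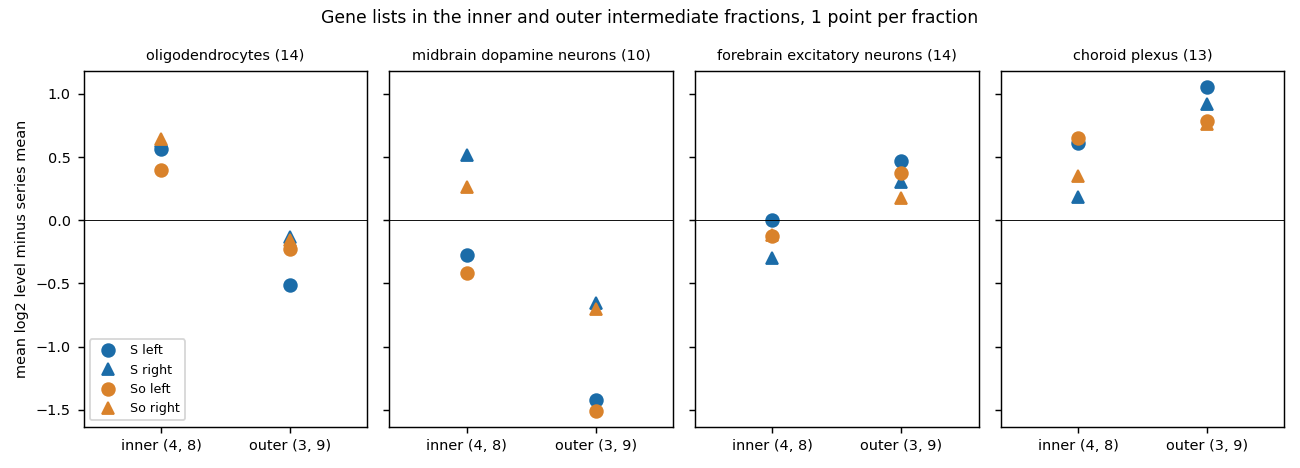
Mean log2 level minus the series mean (vertical axis) of 4 gene lists in the inner (fractions 4 and 8) and outer (3 and 9) intermediate fractions, 1 point per fraction, with circles for left, triangles for right, blue for S and orange for So. The oligodendrocyte points lie above 0 in the inner and below 0 in the outer fractions, and the forebrain excitatory and choroid plexus points lie higher in the outer fractions.

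Among the genes called, the 5 with the largest inner excess by the fitted difference were Gata3, Slc6a3, Foxb1, Nmu and Glra1. Gata3, a transcription factor of hindbrain and midbrain neurons, differed by 3.56 (adjusted p = 0.0484), with -2.42 to -1.39 in the inner and -7.82 to -4.53 in the outer fractions. Slc6a3 gave 3.005 (adjusted p = 0.0363), Foxb1, a transcription factor of the mammillary region, 2.92 (adjusted p = 0.0339), the neuropeptide precursor Nmu 2.81 (adjusted p = 0.0456), and the glycine receptor subunit Glra1 2.71 (adjusted p = 0.0473). Gata3 was well above background on all 4 inner and 3 of the 4 outer arrays. Foxb1, Nmu and Glra1 were well above background on all 4 inner and on 1 of the 4 outer arrays each, so that the size and order of these 4 rest on outer signals near background, for Gata3 on that of 1 array. Slc18a2 and the decarboxylase Ddc gave 1.61 (adjusted p = 0.0271) and 0.80 (adjusted p = 0.023), and the subcortical glutamate transporter Slc17a6 gave 1.27 (adjusted p = 0.0377). Of 10 dopamine neuron genes, 3 were higher in the inner fractions and 0 lower.

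Of 14 forebrain excitatory genes, 6 were lower and 0 higher, with Slc17a7 at -0.71 (adjusted p = 0.023), and the deep layer gene Fezf2 gave -0.75 (adjusted p = 0.023). Among the genes called, the 5 largest inner deficits by the fitted difference were those of Cdkl4, Lefty2, Zfp300, B3gnt3 and Ccn3. This order rests on signals near background for Cdkl4, Zfp300 and B3gnt3. Lefty2 was well above background on 3 of the 4 inner arrays, so that its place also rests in part on a signal near background. Lefty2, a secreted signalling factor, gave -1.29 (adjusted p = 0.0469), and the matricellular gene Ccn3 gave -1.001 (adjusted p = 0.0345). Cdkl4, a protein kinase, was well above background on 0 of the inner and all 4 outer arrays. It was at least 3.42-fold lower in the inner fractions (adjusted p = 0.041). For this bound a dim array counts at the higher of its own value and the lowest signal well above background. Zfp300 and the glycosyltransferase B3gnt3 were well above background on 0 inner arrays and 1 outer array each. The mean measured level was -7.38 in the inner and -6.10 in the outer fractions for Zfp300, and -7.76 and -6.57 for B3gnt3, and no fold is given. The choroid plexus list had a negative difference for all 13 genes, with a median of -0.43, and 2 of them passed, Tmem72 among them with -0.72 (adjusted p = 0.023). Of the striatal projection neuron genes 0 were called, with a median of 0.25.

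The count of 976 was lost when any 1 of the 8 fractions was left out. Without So9, 1 gene was called, and without S3, S4, S8, S9, So3, So4 or So8, 0 were. The smallest adjusted p with all 8 was 0.0230, with 4 residual degrees of freedom. Scaling to the median of each array gave 239 higher and 328 lower, a share of 42.2% higher in place of 57.4% (41.8% in the authors' normalized table), and 11 of the 14 oligodendrocyte genes remained higher.

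The sides were compared in the same 8 fractions. Left minus right gave 0 calls with limma (690 genes higher and 934 lower on the left at an unadjusted p under 0.05), and the smallest adjusted p was 0.319. Tested on its own, each side also gave 0 calls against the other fractions of that side, with 493 genes higher and 364 lower at an unadjusted p under 0.05 on the left and 134 and 161 on the right. Leaving out 1 array gave at most 2 calls on the left (without So5; 1 without So3) and 1 on the right (without S9). A difference between S and So in the excess of the intermediate fractions was called for 0 genes, with 92 and 46 at an unadjusted p under 0.05.

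Gene lists of the front and the back of the brain are given by side as a description. The 6 olfactory bulb genes had a mean of -0.86 in S3, -0.70 in S4, 0.94 in S8 and 0.85 in S9, so that the right side was the higher one in S. In So they had -1.30, 0.88, -0.72 and -0.69, and So4 on the left alone was above 0. The 11 Hox genes, which mark hindbrain and spinal cord, had -1.91, 0.92, 0.90 and -1.42 in S, high in both inner fractions. In So they had -1.998, -1.59, 1.43 and 0.58, low on the left and high on the right. The Purkinje cell list took 0.18 to 0.61 in all 8 fractions.

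The likeness of the fractions was read from the correlation over genes of their levels, each gene centred on its series mean, as a description. Fractions of the same number in the 2 brains correlated with r = 0.38 for S3 and So3, 0.10 for S4 and So4, 0.18 for S8 and So8, and 0.10 for S9 and So9. Mirrored fractions of 1 brain gave 0.14 for S3 and S9 and 0.05 for So3 and So9, but -0.01 for S4 and S8 and -0.06 for So4 and So8. Mirrored across the brains, S3 and So9 gave 0.18, S4 and So8 0.20, S8 and So4 0.12, and S9 and So3 0.25. The outer fractions were opposed to the middle fraction 6, with -0.34 for S3, -0.21 for S9, -0.33 for So3 and -0.21 for So9, while the inner ones ranged from -0.06 (S4) to 0.12 (S8). Genes are not independent replicates, and centring within a series shifts these values downwards for fractions of 1 brain.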

How the data were processed

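The 61 fractions were measured on single-dye Agilent arrays, 1 array each, and the deposited values are linear spot intensity values that the authors read with Feature Extraction (version 9.1 in the submitters' processing notes), already background-subtracted but not scaled between arrays. The authors also deposited a table of intensity values normalized per chip, which served as an alternative, and 0 of its value columns were left unused.

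Spots with an outlier mark were left out, spots of a probe were averaged, and log2 of the processed signal minus the 75th percentile of each array was taken. Of 41174 non-control probes, the 31499 well above background on at least 1 of the 19 sagittal arrays were tested. The array design in the file headers differs from the one named in the study's methods, and the probes and accessions of the files were used. Symbols came from RefSeq through these accessions, and each gene is represented by the probe with the highest mean. Differences were tested with limma 3.58.1 (R 4.3.3), the mouse as a fixed block and Benjamini-Hochberg adjustment over all probes tested, at an adjusted p under 0.05. On simulated data with changes of 0.5 log2 units, 64% of changed probes were recovered against all other fractions and 48% over both regions, and with changes of 1 unit 78% and 68%, while 6 and 0 unchanged probes were called. The number of arrays limits the precision.

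Genes were named by a rule: the 15 largest differences in each direction among genes called against all other sagittal fractions, the 10 with the largest smaller difference among genes higher, and among genes lower, than both regions, the 5 largest in each direction between inner and outer fractions, and members of the gene lists. Members and lists were chosen with earlier results of these data known. Alternatives were the scaling, the authors' table, normexp with quantile normalization, the filter on dim probes, the mouse, slide and brain side blocks, a left to right trend, the threshold, subsets of fractions and leaving out each array.

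Some genes are not reported here.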

Additional observations from a re-analysis of the deposited data

Results flagged for a closer look

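In 60 groups of 4 intermediate fractions of 1 brain, covering 30 named genes, 3 held a fraction that lay far from the other three by Dixon's criterion, and chance alone marks about 1 group in 20. Krt2 was at -3.73 in S8, against -2.76 to -2.60 in the other intermediate fractions of S, a gap of 0.859 of the range. Car12 was at -0.0946 in S8, against 0.50 to 0.56, a gap of 0.903 of the range. Chrnb3 was at -6.80 in S3, against -6.33 to -6.26, a gap of 0.872 of the range.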

How the results depend on the processing

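All 116 gene differences that were followed kept their direction under the alternatives run, and all 116 missed the threshold under at least 1 of them. Lost under more than 18 of 36 alternatives were the calls of Rgn (24) and Arpp21 (20) against the outermost fractions and of Dgkg (23), Ido1 (22), St8sia3 (21) and Adcy5 (20) against the midline, and the genes named between inner and outer fractions lost theirs under most.

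Against all other fractions, the 0 genes higher became 6 under normexp, 2 with probes well above background on all 19 arrays and 4 with slide as a random block, and the 0 lower became 2, 2 and 2, and 4 under ordinary ANOVA; leaving out 1 array gave 0 to 7 and 0 to 3. Of the 24 genes higher than both regions, the count was 12 with no replicate block (the mouse left out), 3 with slide as a fixed block, 37 with a left to right trend, 0 without fraction 6, 0 in S alone, 0 in So alone and 1 at the stricter threshold of 0.01, and 8 to 67 with 1 array left out. The count of 22 lower was 10 with no replicate block, 42 with median scaling, 41 in the authors' table, 2 with slide as a fixed block, 1 without fraction 6, 0 in S alone, 0 in So alone and 2 at the stricter threshold, and 7 to 28 with 1 array left out. The 1165 genes against the midline became 701 with no replicate block, 6 without fraction 6, 0 in S, 2 in So and 187 at the stricter threshold, and 399 to 1592 with 1 array left out. The 4527 against the outermost fractions became 223 with slide as a fixed block, 1493 in S, 3 in So and 2461 at the stricter threshold, and 3583 to 5292. The 976 between inner and outer fractions became 567 with median scaling and 577 in the authors' table, and 0 to 1. The left side gave 0 to 2 and the right side 0 to 1. The causes were not tested, beyond the smaller number of arrays in the subsets. Fraction numbers of S and So name positions, not shared animals, so the block was the mouse. Genes not well above background in a region have at most a bound there.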
